A study of Homo sapiens with 3 samples.

Results

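The 51 genes described here are the voltage-gated calcium channel and transient receptor potential (TRP) channel genes among the 36601 genes counted in stem-cell-derived islets. They were chosen by symbol alone, as names that begin with CACNA, CACNB or CACNG, or with TRPA, TRPC, TRPM or TRPV and a digit, with antisense genes left out. The rule gave 26 calcium channel subunit genes, 3 transcripts that lie inside CACNA1C, 21 TRP channel genes and TRPC4AP, which encodes a partner of TRPC4 and no channel. The islets were grown from the human embryonic stem cell line HUES8, and their cells were separated magnetically by CD49a, the integrin subunit made from ITGA1. CD49a-positive cells, CD49a-negative cells and unsorted cells gave 1 droplet single-cell library each, after 7 days of reaggregation. No group received a further treatment or genetic change that the labels name, and all 3 shared the line, the differentiation protocol and the dispersal with TrypLE. The 3 libraries are 1 line and may be 1 differentiation, which the labels do not say.

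Voltage-gated calcium channels open when the membrane depolarises and let in the calcium that triggers release of hormone from islet cells. A CACNA1 gene encodes the pore of such a channel, and CACNA2D and CACNB genes encode auxiliary subunits that bring the pore to the membrane and set its gating. Some CACNG products serve calcium channels, and several are better known as partners of AMPA receptors in neurons. TRP channels are cation channels opened by ligands, lipids, heat or calcium. In beta cells they carry depolarising currents, and in gut enterochromaffin cells TRPA1 is known as a sensor of irritants.

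Barcodes were kept from 1000 detected genes upward if no more than 20% of their UMIs (unique molecular identifiers, 1 per captured transcript) were mitochondrial, which left 2394 from the CD49a-positive, 1976 from the CD49a-negative and 2256 from the unsorted library, with median depths of 48538, 36997 and 42361 UMIs. The filter removed 46.9% of CD49a-positive, 23.0% of CD49a-negative and 19.7% of unsorted barcodes. Between 2 and 6 barcodes were shared by any pair of libraries. Over the kept cells ITGA1 stood at 108 CPM in the CD49a-positive, 33.2 CPM in the CD49a-negative and 66.2 CPM in the unsorted library, where CPM is the sum of a gene's UMIs relative to that of all genes, scaled to a common depth. Cells were sorted into classes by 1 hormone or enzyme gene each, INS (insulin), GCG (glucagon), SST (somatostatin) or TPH1, which limits the rate of peripheral serotonin synthesis. A cell was called rich in one of these genes if its CPM reached 0.2 of the gene's 99th percentile and the next gene's ratio was at most 0.5 of the leading one. This gave 2418 INS-rich, 909 GCG-rich, 206 SST-rich and 659 TPH1-rich cells, 444 cells that were mixed and 1990 in which none of the 4 genes was high. These classes are ranges of 1 gene and not cell types, and 501 of the 6626 cells lay within 10% of a cut. Cells with MALAT1 under 0.25 of their library's median CPM, here called nucleus-poor, were kept. They were 310 of 1402 (CD49a-positive), 80 of 338 (CD49a-negative) and 104 of 678 (unsorted) INS-rich cells. In TPH1-rich cells they were 5 of 63, 35 of 298 and 28 of 298. A list of enterochromaffin markers (TPH1, FEV, CBLN1, SLC18A1, LMX1A, ADRA2A and DDC) summed to between 2533 and 3215 CPM in TPH1-rich cells, and to at most 615 CPM in the other classes. TPH1 itself, which chose the class, made up 1035 (CD49a-positive), 971 (CD49a-negative) and 1025 CPM (unsorted) of the TPH1-rich sums. That part of the difference was set by the class rule. Acinar, mesenchymal, endothelial, pluripotency and liver or gut markers summed to at most 4.31 CPM in any class and library. A list of 4 neural genes summed to between 834 and 1051 CPM in TPH1-rich cells and between 511 and 766 CPM in the others, all but a trace of it from the 2 genes at 1 CPM or more. Duct markers summed to between 43.0 and 122 CPM, and GHRL and PPY to between 95.5 and 271 CPM in SST-rich cells against at most 15.1 CPM elsewhere. Proliferation markers summed to at most 62.9 CPM.

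Among the 51 genes, 29 had at least 300 UMIs over the kept cells and are given by library and class below. The other 22 held 0 to 229 UMIs each, 11 of them under 50, and TRPV6 and CACNA1C-IT2 held none. Of the 51 genes, 13 span at least 200 kb in GENCODE release 29. They include deep genes such as CACNA2D1, with 375839 UMIs over 497 kb, but also TRPC6 and TRPC5, with 29 and 56 UMIs. The shorter TRPC4AP (90.5 kb) held 29038 UMIs. CACNA2D3 covers 952 kb on chromosome 3 (GRCh38, 54122547 to 55074557, plus strand), TRPM3 918 kb on chromosome 9 (70529063 to 71446904, minus strand) and CACNA1E 490.4 kb on chromosome 1 (181317690 to 181808084, plus strand). TRPC7 covers 152 kb on chromosome 5 (136213320 to 136365545, minus strand) and TRPC4 234 kb on chromosome 13 (37636636 to 37870425, minus strand). Whether intronic reads were counted is not given in the sources used here.

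Because CACNA1E and CACNA2D3 were the 2 channel genes called higher in INS-rich cells, and TRPC4 was among those called higher in GCG-rich cells, the bases around their starts are shown. Each window runs from 250 bases before to 50 bases after the start that RefSeq gives on GRCh38.p14, and capitals mark CG dinucleotides. The windows are chr1:181483267-181483566 on the plus strand for CACNA1E, chr3:54122302-54122601 on the plus strand for CACNA2D3 and chr13:37869723-37870022 on the minus strand for TRPC4.
CACNA1E: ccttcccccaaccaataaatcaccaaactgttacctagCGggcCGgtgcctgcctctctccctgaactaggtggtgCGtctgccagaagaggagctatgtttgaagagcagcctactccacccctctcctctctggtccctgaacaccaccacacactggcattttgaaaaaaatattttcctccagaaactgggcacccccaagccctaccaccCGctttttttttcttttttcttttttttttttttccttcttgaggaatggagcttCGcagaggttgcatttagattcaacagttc
CACNA2D3: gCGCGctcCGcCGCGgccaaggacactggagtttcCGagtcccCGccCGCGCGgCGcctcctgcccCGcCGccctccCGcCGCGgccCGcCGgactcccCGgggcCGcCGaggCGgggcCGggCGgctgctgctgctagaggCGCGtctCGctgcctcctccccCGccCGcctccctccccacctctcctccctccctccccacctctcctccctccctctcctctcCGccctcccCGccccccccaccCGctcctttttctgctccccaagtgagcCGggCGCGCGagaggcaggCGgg
TRPC4: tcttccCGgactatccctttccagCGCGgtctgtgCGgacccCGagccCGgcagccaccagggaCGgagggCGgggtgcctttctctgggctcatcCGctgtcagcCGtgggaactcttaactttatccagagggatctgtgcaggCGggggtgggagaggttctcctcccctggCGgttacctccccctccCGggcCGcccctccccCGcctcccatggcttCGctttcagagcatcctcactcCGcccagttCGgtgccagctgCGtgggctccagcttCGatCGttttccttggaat
The CACNA1E window held 5 CG dinucleotides and 48.0% G or C, the CACNA2D3 window 37 and 79.0%, and the TRPC4 window 21 and 65.3%. The median of all RefSeq windows was 14 CG dinucleotides and 58.7%. Thus the pair of genes called together in INS-rich cells lay on opposite sides of the median. The CACNA1E and TRPC4 windows lie inside the gene spans given by GENCODE, so transcripts with an earlier start are also annotated. A search on both strands for TAATTA (a homeodomain core, in 4.84% of 35116 windows), TGCTGA (17.3%), CAGATG (14.7%) and CCGGAA (17.2%) found no match in the 3 windows. RefSeq windows were at hand for 34 of the 51 genes, and TRPC7 was not among them.

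The first comparison asked which channel genes set the classes apart. UMIs were summed by class within each library, and edgeR's quasi-likelihood test compared each class with the mean of the other 3, with library as a block. A gene was called if its Benjamini-Hochberg adjusted p over all 17290 genes tested was under 0.05 and it differed at least 2-fold. The p-values measure the spread between these 3 libraries only. A total of 32 of the 51 genes passed the filter on low counts, which asked for about 0.981 CPM in enough sums, and 19 did not. The genes that defined the classes are not members, so the class rule did not use the channel genes.

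INS-rich cells had 2 members called higher, CACNA1E and CACNA2D3, and 2 called lower, CACNG8 and CACNG2, out of 32 tested. CACNG8 passed the filter on low counts through GCG-rich cells, so its call is a description only. Over all genes 3.57% were called higher and 3.8% lower in this class. CACNA1E encodes the pore of the R-type channel Cav2.3. It stood at 142 CPM (CD49a-positive), 117 CPM (CD49a-negative) and 130.1 CPM (unsorted) in INS-rich cells. In GCG-rich cells it stood at 26.4, 16.3 and 16.5 CPM in the same order of libraries, in SST-rich cells at 56.7, 28.9 and 30.04 CPM, and in TPH1-rich cells at 54.9, 25.9 and 37.8 CPM. Every INS-rich value thus lay above every value of the other classes. The log2 difference was 2.23 (SE 0.089), a 4.68-fold higher level, with an adjusted p of 7.64e-11 by edgeR's quasi-likelihood test. The same gene was called lower in GCG-rich cells, at a log2 difference of -1.45 (SE 0.12, adjusted p = 5.47e-08 by the same test).

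CACNA2D3 encodes the auxiliary subunit alpha-2-delta-3. In INS-rich cells it stood at 149 CPM (CD49a-positive), 99.8 CPM (CD49a-negative) and 129.7 CPM (unsorted). GCG-rich cells of the same libraries had 37.0, 20.6 and 23.1 CPM, SST-rich cells 40.2, 15.5 and 8.58 CPM, and TPH1-rich cells 77.4, 27.9 and 34.7 CPM. The INS-rich values again lay above all others, and in each of the other classes the CD49a-positive library was the highest. The log2 difference was 2.30 in INS-rich cells (SE 0.13, adjusted p = 1.63e-09) and -1.48 in SST-rich cells (SE 0.22, adjusted p = 1.98e-04), both by edgeR's quasi-likelihood test. Its relatives did not follow it past the threshold. CACNA2D1, the alpha-2-delta-1 subunit that gabapentin binds, stood at 1496, 1154 and 1339 CPM in INS-rich cells, against a highest value of 1150 CPM in the other classes. Its log2 difference was 0.79 (SE 0.073), under 2-fold. Cells in which none of the class genes was high held 1995 CPM of it in the CD49a-positive library. CACNA2D2 stood at 38.5, 51.5 and 42.9 CPM in INS-rich cells and between 42.5 and 77.4 CPM in the other classes.

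**Figure D1:**
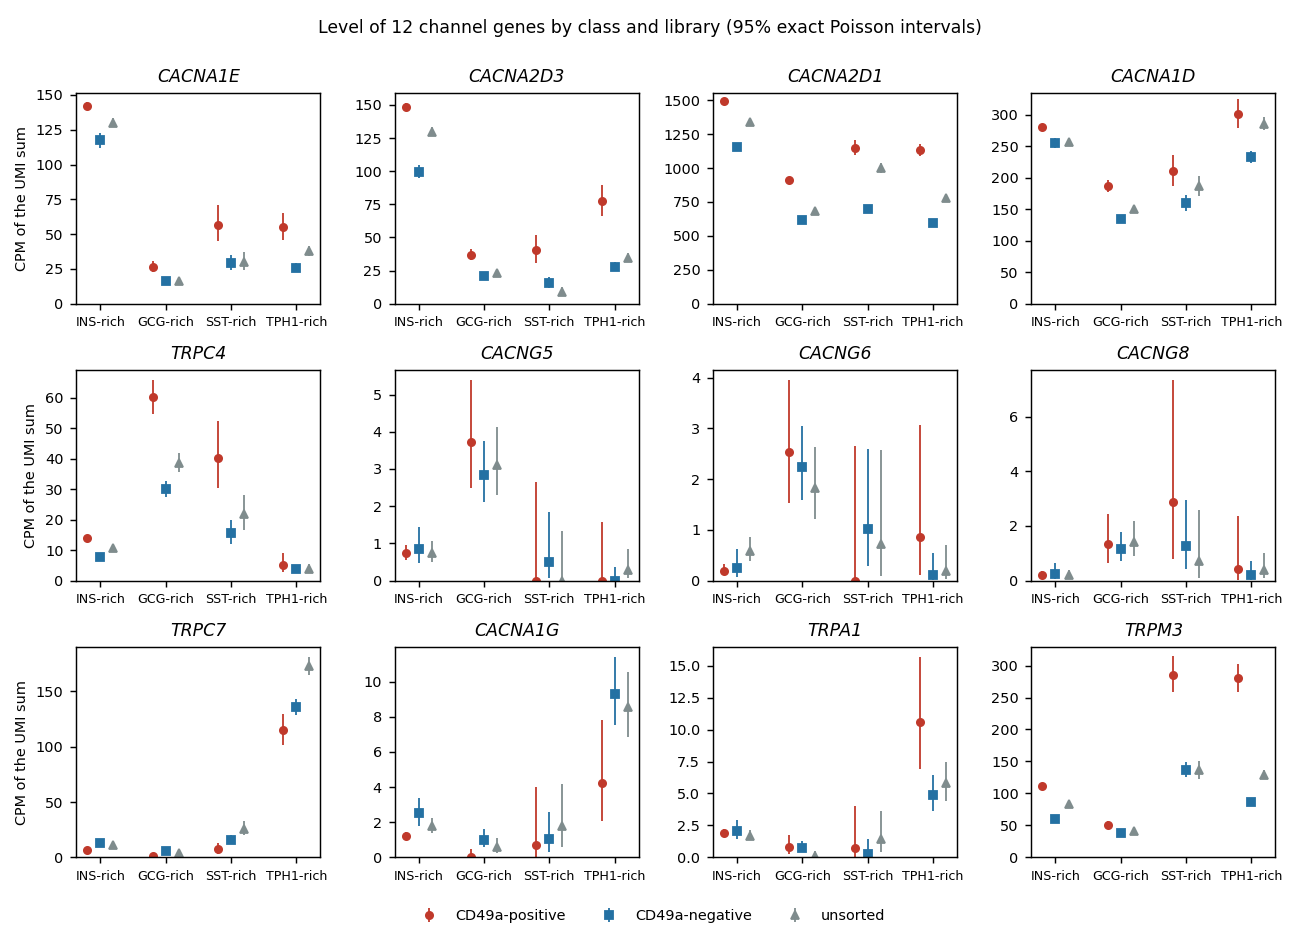
Level in CPM of the UMI sum (vertical axes, linear, from 0) of 12 channel genes in the 4 classes (horizontal axes), 1 symbol per library, with lines for 95% exact Poisson intervals. CACNA1E and CACNA2D3 were highest in INS-rich cells, CACNG5 and CACNG6 in GCG-rich cells and TRPC7, CACNA1G and TRPA1 in TPH1-rich cells of all 3 libraries.

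Of the other pore genes of high-voltage channels, CACNA1A, CACNA1B, CACNA1C and CACNA1D were tested and none was called in any class, while CACNA1S and CACNA1F did not pass the filter. CACNA1D, the L-type pore Cav1.3, stood at 280.0, 255 and 256 CPM in INS-rich cells of the CD49a-positive, CD49a-negative and unsorted libraries and at 301, 233 and 286 CPM in TPH1-rich cells. Its values in GCG-rich cells were 187, 135 and 150.0 CPM. CACNA1C, the L-type pore Cav1.2, ranged between 379 and 781 CPM over the 12 sums, CACNA1A, the P/Q-type pore, between 188 and 451 CPM, and CACNA1B, the N-type pore, between 63.5 and 149 CPM. All 4 were detected in every class and library. Of the beta subunits, CACNB2 ranged between 531 and 927 CPM without a call, while CACNB1 and CACNB4 stayed between 2.53 and 10.6 CPM. The gamma subunit genes CACNG4 and CACNG7 ranged between 8.13 and 26.8 CPM and between 9.38 and 24.7 CPM and were not called, nor was TRPC4AP, between 70.5 and 117 CPM.

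The 2 called genes of INS-rich cells were spread over the cells in different ways, a measure taken after their values were seen. Each cell was thinned to 10000 UMIs, and shallower cells were left out. CACNA1E then had a mean of 1.48 UMIs per INS-rich cell in the CD49a-positive, 1.40 in the CD49a-negative and 1.37 in the unsorted library, and 68.3%, 58.6% and 62.4% of the cells had at least 1 UMI. CACNA2D3 had means of 1.60, 1.12 and 1.39 UMIs, but only 37.5%, 25.7% and 35.5% of the cells had one. Unthinned, 80.8%, 78.1% and 86.1% of INS-rich cells had a CACNA1E UMI and 48.1%, 42.6% and 52.7% a CACNA2D3 UMI, at a median depth over the class of 54390.5 UMIs. In GCG-rich cells the thinned shares were 9.52%, 12.2% and 9.43% for CACNA1E and 14.3%, 10.6% and 14.5% for CACNA2D3. The 10% of INS-rich cells with the most CACNA2D3 UMIs held 64.3%, 76.7% and 65.1% of them, whereas the 10% with the most CACNA1E UMIs held 32.5%, 38.3% and 35.8%. Single INS-rich cells reached 53, 46 and 30 CACNA2D3 UMIs, against 11, 15 and 9 for CACNA1E. In each library CACNA2D3 transcripts were thus gathered in fewer INS-rich cells. TRPM3 showed a like spread, with a UMI in 28.3%, 19.4% and 26.8% of INS-rich cells and 72.4%, 83.1% and 73.6% of its UMIs in the top 10% of cells. No cause of the uneven spread was tested.

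**Figure D2:**
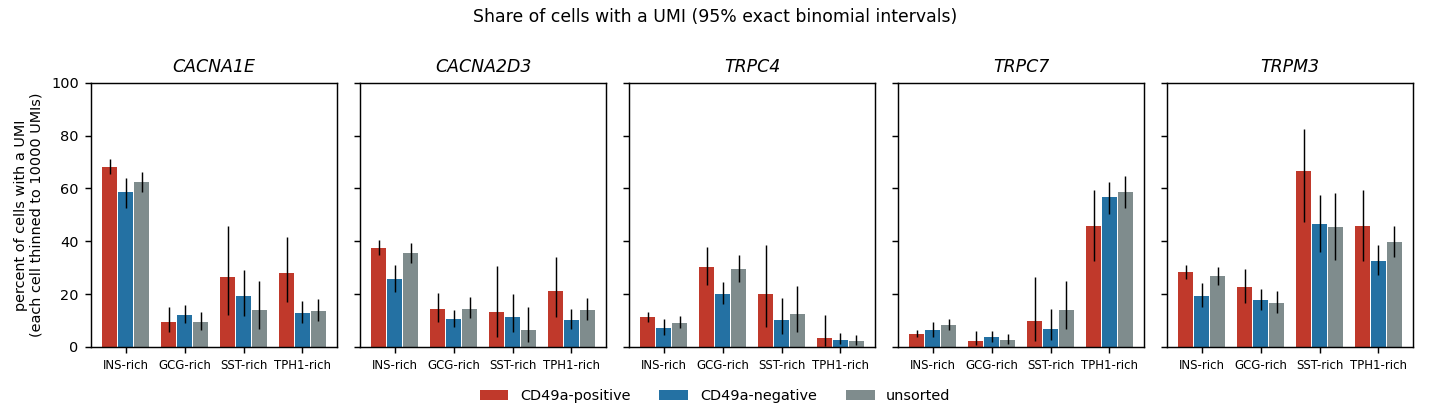
Percent of cells with at least 1 UMI after each cell was thinned to 10000 UMIs (vertical axis, 0 to 100), by class (horizontal axis) and library (bars), with 95% exact binomial intervals. CACNA1E was found in 58.6 to 68.3% of INS-rich cells and CACNA2D3 in 25.7 to 37.5%, while TRPC7 was found in 45.6 to 58.8% of TPH1-rich cells.

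TPH1-rich cells had 5 members called higher, TRPC7, TRPA1, CACNA1G, TRPV2 and CACNB3, and 4 called lower, TRPC4, CACNG5, CACNG6 and CACNG8. These CACNG genes passed the filter through GCG-rich cells, so their calls are a description only. Over all genes 6.42% were called higher and 5.72% lower. TRPC7 encodes a cation channel opened by diacylglycerol downstream of phospholipase C. In TPH1-rich cells it stood at 115 CPM (CD49a-positive), 136 CPM (CD49a-negative) and 173 CPM (unsorted). It stood at 6.20, 13.0 and 11.2 CPM in INS-rich cells, at 1.60, 5.47 and 4.16 CPM in GCG-rich cells and at 7.18, 15.7 and 25.7 CPM in SST-rich cells of these libraries. The lowest TPH1-rich value was thus over 4 times the highest of any other class. The log2 difference was 3.87 (SE 0.12), a 14.6-fold higher level, with an adjusted p of 2.45e-12 by edgeR's quasi-likelihood test. In GCG-rich cells TRPC7 was called lower, at a log2 difference of -2.75 (SE 0.19, adjusted p = 9.52e-09 by the same test).

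After thinning to 10000 UMIs, 45.6% of CD49a-positive, 56.6% of CD49a-negative and 58.8% of unsorted TPH1-rich cells had a TRPC7 UMI, against 2.38%, 3.70% and 2.52% of GCG-rich cells. Unthinned, the shares were 66.7%, 75.5% and 75.2% in TPH1-rich and 5.46%, 11.1% and 9.50% in GCG-rich cells. The median depth was 29736 UMIs in TPH1-rich and 39681 UMIs in GCG-rich cells, so the class with the higher shares was the shallower one. The sums of the other classes held some TPH1 as well. There were 28.4, 22.9 and 23.8 TRPC7 UMIs per 100 TPH1 UMIs in INS-rich cells, against 11.1, 14.0 and 16.9 in TPH1-rich cells. GCG-rich cells had 35.3, 16.5 and 24.3, and SST-rich cells 37.0, 39.7 and 46.2. Sums do not show whether the same cells held both genes. Since TPH1 chose the class, these ratios are a description only.

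TRPA1, opened by irritants, stood at 10.6, 4.86 and 5.83 CPM in TPH1-rich cells of the CD49a-positive, CD49a-negative and unsorted libraries and at most at 2.07 CPM in any other sum. It rested on 617 UMIs over all kept cells. Its log2 difference was 2.66 (SE 0.32, adjusted p = 5.28e-06 by edgeR's quasi-likelihood test). CACNA1G encodes the T-type, low-voltage pore Cav3.1 and stood at 4.25, 9.32 and 8.55 CPM in TPH1-rich cells, against at most 2.50 CPM elsewhere. The log2 difference was 2.63 (SE 0.25, adjusted p = 4.01e-07 by the same test). CACNA1H, the T-type pore Cav3.2, did not share this pattern, with 7.23, 9.71 and 9.33 CPM in TPH1-rich cells and between 7.203 and 11.7 CPM in the others. CACNB3, a beta subunit, stood at 15.3, 17.7 and 16.0 CPM in TPH1-rich cells against at most 10.9 CPM elsewhere, at a log2 difference of 1.08 (SE 0.13, adjusted p = 6.12e-06 by the same test), which was 0.70 and under 2-fold when scaled to long genes. TRPV2 passed the filter with only 3 of 12 sums at the needed level, 2 of them TPH1-rich, so its log2 difference of 1.83 (SE 0.56) is given as a description. Of the members without a test, CACNG3 reached 2.78 and 3.59 CPM in TPH1-rich cells of the CD49a-negative and unsorted libraries, and 0.43 CPM in the CD49a-positive one.

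GCG-rich cells had 4 members called higher, CACNG5, CACNG6, TRPC4 and CACNG8, and 6 called lower, TRPC7, CACNA1G, TRPA1, TRPM3, CACNA1E and TRPM5. Over all genes 4.46% were called higher and 5.89% lower. TRPA1, CACNA1G and TRPM5 passed the filter on low counts through INS-rich and TPH1-rich cells. Their mean over the other classes was high by selection, so these lower calls are a description only. TRPC4 encodes a receptor-operated cation channel of the same family as TRPC7. It stood at 60.1 CPM (CD49a-positive), 30.02 CPM (CD49a-negative) and 38.6 CPM (unsorted) in GCG-rich cells and at 40.2, 15.5 and 21.8 CPM in SST-rich cells. INS-rich cells had 13.9, 7.56 and 10.7 CPM, and TPH1-rich cells 5.10, 3.67 and 3.89 CPM. Within each library the order of classes was the same, with GCG-rich highest and TPH1-rich lowest. TRPC4 was thus highest where TRPC7 was lowest, and lowest where TRPC7 was highest. The log2 difference of TRPC4 was 2.11 in GCG-rich cells (SE 0.082, adjusted p = 2.22e-11) and -2.48 in TPH1-rich cells (SE 0.13, adjusted p = 4.06e-10), both by edgeR's quasi-likelihood test. After thinning, 30.4%, 20.1% and 29.6% of GCG-rich cells had a TRPC4 UMI, against 3.51%, 2.57% and 2.15% of TPH1-rich cells, and unthinned the shares were 55.7%, 55.8% and 60.2% against 9.52%, 6.04% and 5.37%. TRPC1, the third TRPC gene with over 300 UMIs, stood at 116, 95.3 and 129 CPM in TPH1-rich cells and between 50.4 and 87.6 CPM elsewhere, and was not called.

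The gamma subunit genes CACNG5, CACNG6 and CACNG8 were low, with 389, 229 and 169 UMIs over all kept cells. They passed the filter through GCG-rich cells, the only class in which all 3 libraries reached 0.981 CPM, so they had to be high there and their calls in that class support nothing. CACNG5 stood at 3.73, 2.85 and 3.12 CPM in GCG-rich cells and at most at 0.85 CPM elsewhere. CACNG6 stood at 2.53, 2.23 and 1.82 CPM there and at most at 1.01 CPM elsewhere. CACNG8 had 1.33, 1.17 and 1.43 CPM in GCG-rich cells and 2.87, 1.27 and 0.72 CPM in SST-rich cells, where the 3 libraries differed among themselves. Their calls in TPH1-rich cells, and that of CACNG8 in SST-rich cells, depended on single libraries. The lower level of CACNG8 in INS-rich cells (between 0.21 and 0.24 CPM, log2 difference -1.88) was called with any 1 library left out. Because CACNG8 passed the filter through GCG-rich cells, its mean over the other classes was high by selection. This call, and the calls of these CACNG genes in TPH1-rich and SST-rich cells, are therefore a description only. Without the CD49a-negative library the log2 difference of CACNG5 in TPH1-rich cells was -0.22 (adjusted p = 0.921 by edgeR's quasi-likelihood test), and that of CACNG6 -1.34 (adjusted p = 0.353), and without the unsorted library CACNG6 was at -1.61 (adjusted p = 0.232). The SST-rich and TPH1-rich calls of CACNG8 were lost whichever library was left out, with adjusted p between 0.0807 and 0.280 in SST-rich and between 0.0863 and 0.296 in TPH1-rich cells. TRPA1, CACNA1G and TRPM5 reached 0.981 CPM in all 3 libraries of INS-rich and TPH1-rich cells only. Without the unsorted library the lower level of TRPA1 in GCG-rich cells was at -1.05 with an adjusted p of 0.217 by the same test.

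SST-rich cells had 3 members called higher, CACNG8, CACNG2 and TRPM3, and 1 called lower, CACNA2D3. Over all genes 3.18% were called higher and 1.45% lower. This class was the smallest, with 31 CD49a-positive, 97 CD49a-negative and 78 unsorted cells. TRPM3 encodes a channel opened by heat and by the steroid pregnenolone sulfate. It stood at 286 CPM (CD49a-positive), 137 CPM (CD49a-negative) and 137 CPM (unsorted) in SST-rich cells, and at 279.8, 87.3 and 129.5 CPM in TPH1-rich cells. INS-rich cells had 112, 59.6 and 84.1 CPM and GCG-rich cells 50.8, 37.3 and 40.4 CPM, the lowest values in each library. The log2 difference was 1.09 in SST-rich cells (SE 0.13, adjusted p = 2.91e-05) and -1.48 in GCG-rich cells (SE 0.14, adjusted p = 3.72e-07), both by edgeR's quasi-likelihood test. CACNG2, known as stargazin in the mouse, stood at 9.33, 9.89 and 11.8 CPM in SST-rich and 11.9, 7.73 and 10.7 CPM in TPH1-rich cells, against at most 3.58 CPM in the other 2 classes. Its log2 difference was 1.19 in SST-rich cells (SE 0.19, adjusted p = 4.08e-04) and -1.11 in INS-rich cells (SE 0.15, adjusted p = 2.74e-05) by the same test.

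Among the other TRP genes, TRPM5 was the one called in a class. TRPM7, a channel fused to a kinase and needed for magnesium balance, ranged between 59.4 and 105 CPM, and its relative TRPM6 between 2.41 and 5.02 CPM, and neither was called. TRPM4 and TRPM5 encode cation channels opened by calcium and are known in beta cells. TRPM4 stood between 2.34 and 6.46 CPM without a call. TRPM5 stood at 1.77, 1.83 and 1.56 CPM in INS-rich cells and at 0.40, 0.73 and 0.72 CPM in GCG-rich cells, where its log2 difference was -1.004 (SE 0.31, adjusted p = 0.0158 by edgeR's quasi-likelihood test). This call was lost whichever library was left out, with adjusted p of 0.0556 without the CD49a-positive, 0.125 without the CD49a-negative and 0.0893 without the unsorted library. TRPV1, the capsaicin receptor, ranged between 4.10 and 8.51 CPM, but it overlaps SHPK on the same strand (1912 against 2823 UMIs), so its count is uncertain. TRPM2, TRPM8, TRPC5, TRPC6 and the calcium-selective TRPV5 held at most 56 UMIs each.

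**Figure D3:**
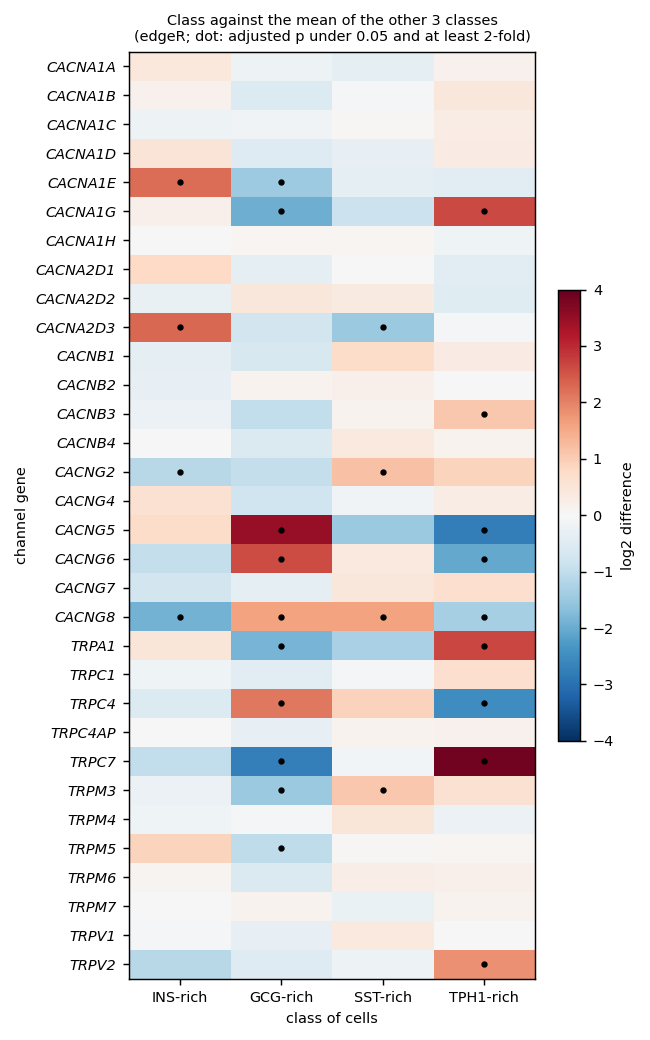
Log2 difference of each class from the mean of the other 3 (colour scale) for the 32 channel genes tested, 1 column per class. Dots mark an adjusted p under 0.05 by edgeR with at least a 2-fold difference. TRPC7 reached 3.87 in TPH1-rich and -2.75 in GCG-rich cells, and CACNA1E and CACNA2D3 reached 2.23 and 2.30 in INS-rich cells.

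Over the 32 tested members the median log2 difference was -0.03 in INS-rich, -0.47 in GCG-rich, 0.06 in SST-rich and 0.17 in TPH1-rich cells, while over all genes it lay between -0.01 and 0.02. Members that passed the filter through 1 class had to differ, so these medians are a description. Other genes of at least 200 kb had medians of -0.10, -0.16, -0.05 and 0.24 in the same order of classes, and 16.4%, 23.8%, 9.98% and 26.1% of these 1583 genes were called. Long genes took a larger share of UMIs in TPH1-rich cells than in the other classes of the same library, namely 23.3% in the CD49a-positive, 18.1% in the CD49a-negative and 22.2% in the unsorted library, against 11.9 to 16.4% in the other classes. Scaled to long genes, a setting that moved the median log2 difference of all genes to 0.22 in GCG-rich, 0.19 in SST-rich and -0.39 in TPH1-rich cells, the counts of called members were 5, 9, 5 and 8 in INS-, GCG-, SST- and TPH1-rich cells, against 4, 10, 4 and 9.

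**Figure D4:**
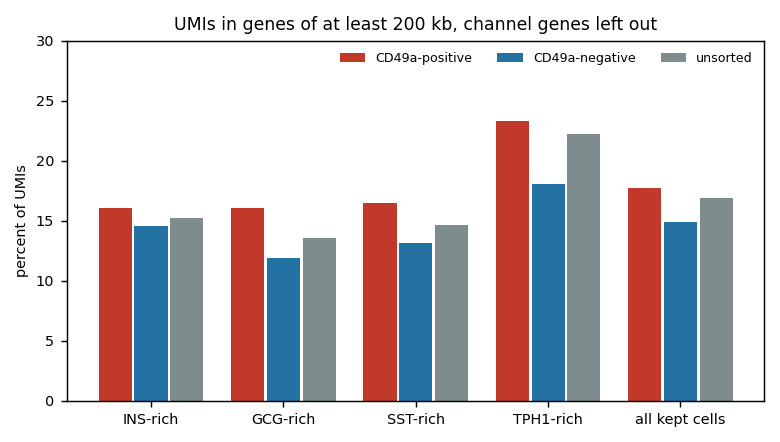
Percent of UMIs in genes of at least 200 kb, the channel genes left out (vertical axis, from 0), by class and over all kept cells (horizontal axis), 1 bar per library and no error bars. TPH1-rich cells had the highest share in each library, 18.1 to 23.3%, and the CD49a-negative library the lowest in each class.

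Genes that handle calcium after it enters, or that act beside these channels or in exocytosis, were described from lists. Over all genes, the shares called higher and lower were 6.42% and 5.72% in TPH1-rich, 4.46% and 5.89% in GCG-rich, 3.57% and 3.8% in INS-rich and 3.18% and 1.45% in SST-rich cells, and of other genes of at least 200 kb 26.1% were called in TPH1-rich cells. The counts of list genes stand beside these shares, and no list was tested as a set. Of 21 tested genes for stores, pumps and exchangers, 4 were called higher and 1 lower in TPH1-rich cells. RYR2, a ryanodine receptor of the endoplasmic reticulum, stood at 361, 343 and 526 CPM in TPH1-rich cells of the CD49a-positive, CD49a-negative and unsorted libraries and at most at 90.4 CPM elsewhere, at a log2 difference of 2.77 (SE 0.10, adjusted p = 9.14e-12 by edgeR's quasi-likelihood test). ITPR3 and ITPR2, which encode inositol trisphosphate receptors, were at 2.20 and 2.10. The mitochondrial exchanger SLC8B1 was at -2.29, on 2, 3 and 3 UMIs in TPH1-rich cells of the same libraries. It passed the filter on low counts through GCG-rich and SST-rich cells, so its lower call is a description only. In GCG-rich cells RYR2 and the sodium-calcium exchanger SLC8A1 were called lower, at -2.32 and -2.31, as was ITPR2, and SLC8B1 was called higher. In INS-rich cells 2 of the 21 were called lower, ATP2B2 and ITPR3, and in SST-rich cells 1 was called higher, ATP2B2. The median log2 difference of the list lay between -0.11 and 0.02 over the 4 classes, close to that of all genes.

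Of 6 genes of store-operated entry, the calcium sensors STIM1 and STIM2 were called higher in TPH1-rich cells, at log2 differences of 1.02 and 1.05. None of the 6 was called by edgeR or by DESeq2 in the other classes, where 3 or 4 had an unadjusted p under 0.05. Of 16 tested partners and inhibitors of voltage-gated channels, STAC, an adaptor of L-type channels, was the furthest from the other classes. It stood at 241, 288 and 337 CPM in TPH1-rich cells and at most at 42.6 CPM elsewhere, at a log2 difference of 3.55 (SE 0.13, adjusted p = 8.25e-12 by edgeR's quasi-likelihood test). RIMS1 and CABP1 were also called higher there, and in GCG-rich cells all 3 and CABP7 were called lower. CABP1 held only 1, 7 and 8 UMIs in GCG-rich cells of the 3 libraries. It passed the filter on low counts through INS-rich and TPH1-rich cells, so its lower call is a description only. STAC was called lower in INS-rich cells. CABP7 was also among the calls in INS-rich and SST-rich cells, but it reached 0.981 CPM in all 3 libraries of INS-rich cells only (1.55, 1.04 and 1.53 CPM) and rested on 2 to 9 UMIs per library in SST-rich cells. Its calls are therefore a description only. The medians of these 2 lists ranged between -0.22 and 0.26.

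Among 14 exocytosis genes of the synaptotagmin, UNC13, DOC2 and CADPS families, SYT13 and SYT1 were called higher in TPH1-rich cells. SYT4 and CADPS2 were called lower there, and DESeq2 called 3 of the 14 in that class. GCG-rich cells had SYT4 and CADPS2 higher and SYT13 lower, INS-rich cells SYT2 higher and CADPS2 lower, and SST-rich cells SYT2 lower. Of 16 tested genes of calcineurin signalling and CaM kinases, CAMK2A and CAMK4 were called higher in INS-rich cells, at 1.97 and 1.66. CAMK2A, CAMK1D and NFATC2 were called higher in TPH1-rich cells, and CAMK2A (on 1, 7 and 5 UMIs), CAMK1D and CAMK4 lower in GCG-rich cells. CAMK2A passed the filter on low counts through INS-rich and TPH1-rich cells, so its lower call is a description only. None of the 16 was called in SST-rich cells by edgeR or by DESeq2, with 10 at an unadjusted p under 0.05. Of the other TRP families, 5 mucolipin and polycystin genes were tested and none was called in any class by either tool, with 2 to 4 of them at an unadjusted p under 0.05. The medians of these last 3 lists lay between -0.33 and 0.25.

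The second comparison asked how the channel genes differed between the sorted libraries. With 1 library per group there is no test, intervals cover counting error only, and 2-fold on log2 ratios with 10 CPM added to both sides is a rule of size. To be eligible, a gene needed 10 CPM and 50 UMIs in whichever library had more. Over all kept cells 3 of 18 eligible members passed 2-fold between the CD49a-positive and CD49a-negative libraries, against 0.8% of all eligible genes. CACNA2D3 stood at 137 CPM in CD49a-positive and 46.7 CPM in CD49a-negative cells, a 2.94-fold difference (95% interval 2.84 to 3.05). CACNA1E stood at 133 CPM in CD49a-positive and 54.7 CPM in CD49a-negative cells, a 2.43-fold difference (2.35 to 2.51). TRPC7 stood at 12.05 CPM in CD49a-positive and 37.4 CPM in CD49a-negative cells, 3.10-fold lower (2.92 to 3.30). The unsorted library lay between the sorted ones for CACNA1E (85.9 CPM) and CACNA2D3 (86.6 CPM), and above both for TRPC7 (41.1 CPM). The log2 ratios were 1.38, 1.14 and -1.10. Scaled to long genes, CACNA1E was at 0.93, under 2-fold.

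CACNA1E and CACNA2D3 were among the members called in INS-rich cells and TRPC7 among those called in TPH1-rich cells. The libraries also differed in their shares of these classes. INS-rich cells made up 58.6% of CD49a-positive, 17.1% of CD49a-negative and 30.1% of unsorted cells, and TPH1-rich cells 2.63%, 15.1% and 13.2%. Within INS-rich cells none of 18 eligible members passed 2-fold, against 0.108% of all eligible genes. There CACNA2D3 was 1.49-fold higher in CD49a-positive cells (1.42 to 1.57) and CACNA1E 1.21-fold higher (1.15 to 1.27), and TRPM3 was 1.88-fold higher (1.76 to 2.01). Within TPH1-rich cells TRPC7 stood at 115 CPM in CD49a-positive and 136 CPM in CD49a-negative cells, 1.19-fold lower (1.04 to 1.36). The all-cell ratios of the 3 genes were thus larger than those within the class in which each was highest. In every other class each of the 3 differed more than in that class, in the same direction. TRPC7 stood at 1.60 CPM in CD49a-positive and 5.47 CPM in CD49a-negative GCG-rich cells, on 12 and 98 UMIs, a larger ratio than over all kept cells. Cells in which none of INS, GCG, SST and TPH1 was high differed as well. CACNA1E stood there at 169.8 CPM in CD49a-positive and 61.2 CPM in CD49a-negative cells, CACNA2D3 at 172 and 47.3 CPM, and TRPC7 at 23.5 and 44.7 CPM. The ratios of CACNA1E and CACNA2D3 were larger there than over all kept cells, and that of TRPC7 was smaller. In mixed cells these genes stood at 86.3 and 41.7, 71.3 and 35.7, and 15.4 and 23.0 CPM. The part of the class shares in the all-cell ratios was not tested. CD49a-positive over unsorted cells gave 1 member past 2-fold over all kept cells, TRPC7 (0.214% of all eligible genes). Within SST-rich cells it gave 3 of 15, CACNA2D3 and TRPM3 higher and TRPC7 lower in CD49a-positive cells, with 10 TRPC7 UMIs there (0.901% of all eligible genes). Within TPH1-rich cells it gave TRPM3, 2.16-fold higher in CD49a-positive cells (0.528% of all eligible genes). Over all kept cells, CD49a-negative over unsorted cells gave none (0.00957% of all eligible genes). These comparisons share libraries with each other.

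Within GCG-rich cells no member of 16 eligible passed 2-fold (0.0874% of all eligible genes). Within SST-rich cells 1 of 15 did, TRPM3 (0.751% of all eligible genes), which stood at 286 CPM in the 31 CD49a-positive cells and 137 CPM in CD49a-negative cells, 2.08-fold higher (1.82 to 2.37). Within TPH1-rich cells 2 of 17 did (0.881% of all eligible genes). TRPM3 stood there at 279.8 CPM in CD49a-positive and 87.3 CPM in CD49a-negative cells, 3.205-fold higher (2.89 to 3.55), and CACNA2D3 at 77.4 CPM and 27.9 CPM, 2.78-fold higher (2.29 to 3.36). The unsorted library lay between, at 129.5 CPM for TRPM3 and 34.7 CPM for CACNA2D3. Of 57 thinned CD49a-positive TPH1-rich cells, the 6 with the most UMIs of the gene held 85.0% for CACNA2D3 and 62.0% for TRPM3. In the CD49a-negative library the top 27 of 272 held 98.7% and 68.5%. The folds thus rested on few cells, which the intervals do not cover. INS also differed in TPH1-rich cells, at 11055 CPM in CD49a-positive, 5527 CPM in CD49a-negative and 5103 CPM in unsorted ones. The 63 CD49a-positive cells also stood apart in FEV, a transcription factor of serotonin cells, at 536 CPM against 1021 CPM in CD49a-negative and 835 CPM in unsorted cells. MKI67, a proliferation marker, stood at 17.4 CPM in CD49a-positive, 3.07 CPM in CD49a-negative and 0.29 CPM in unsorted TPH1-rich cells, and the list of proliferation markers summed to 62.9 CPM in CD49a-positive and 2.43 CPM in unsorted cells. The part of these markers in the TRPM3 and CACNA2D3 differences was not tested.

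Most eligible members lay above 0 in every class, that is higher in CD49a-positive cells: 14 of 18 in INS-rich, 14 of 16 in GCG-rich, 13 of 15 in SST-rich and 13 of 17 in TPH1-rich cells. Their median log2 ratios were 0.09, 0.45, 0.42 and 0.40, against -0.05 to 0.03 for all eligible genes. Members of at least 200 kb, 9 or 10 of the eligible ones, had medians of 0.28, 0.55, 0.65 and 0.71 in the same classes. Other genes of that length had medians of 0.10, 0.35, 0.24 and 0.35, lower than the long members in each class, a difference that was not tested. The share of UMIs in long genes moved with the sort in each class: it was 16.1% in CD49a-positive and 14.6% in CD49a-negative INS-rich cells, 16.1% and 11.9% in GCG-rich cells, and 23.3% and 18.1% in TPH1-rich cells. CACNA2D2 went the other way in all 4 classes, at log2 ratios of -0.34 in INS-rich, -0.09 in GCG-rich, -0.28 in SST-rich and -0.22 in TPH1-rich cells, although the interval of its fold reached 1 in all but INS-rich cells. CACNA2D2 stood at 41.9 CPM in all CD49a-positive and 64.0 CPM in CD49a-negative cells. TRPC4 was 2.002-fold higher in CD49a-positive GCG-rich cells (1.76 to 2.27), at a log2 ratio of 0.81 with 10 CPM added. Over all kept cells its fold was 1.16 (1.08 to 1.24). GCG-rich cells made up 7.64% of CD49a-positive and 19.7% of CD49a-negative cells.

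**Figure D5:**
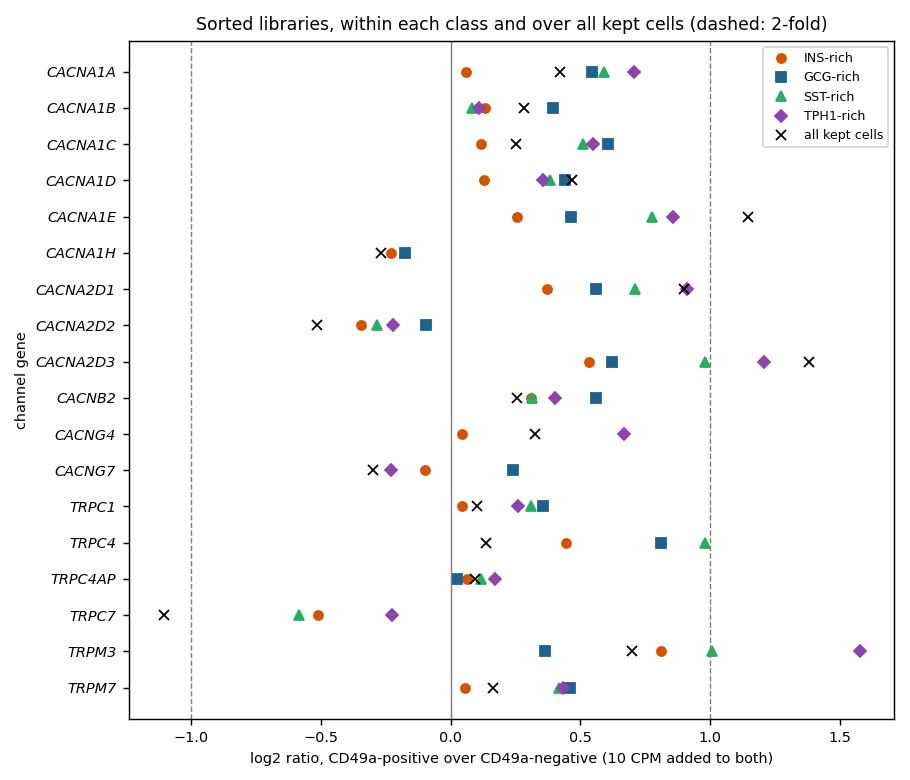
Log2 ratio of CD49a-positive over CD49a-negative libraries with 10 CPM added to both (horizontal axis), for the 18 channel genes eligible over all kept cells (vertical axis), 1 symbol per class and a cross for all kept cells, without error bars. Dashed lines mark 2-fold. CACNA2D3 and CACNA1E crossed the line over all kept cells at 1.38 and 1.14 but reached 0.53 and 0.26 in INS-rich cells.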

How the data were processed

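The deposited matrices hold raw counts of UMIs for each gene in each barcode. The submitters' processing notes name Cell Ranger 7.1.0 and GRCh38. The libraries held 127119509 (CD49a-positive), 88397368 (CD49a-negative) and 114479071 (unsorted) UMIs. Whether intronic reads or strand were used is not given in the sources used here. From these counts, cells were filtered and classed as described, UMIs were summed by library and class, and sums were given as CPM with 95% exact Poisson intervals, shares with Clopper-Pearson intervals and folds with conditional exact binomial intervals, all for counting error only. No doublet caller was run, and mixed cells were left out of the classes. Class differences were tested with edgeR 4.0.16 (R 4.3.3) on 12 sums, with TMM scaling and filterByExpr, and DESeq2 1.42.0 was an alternative. Sums needed at least 20 cells. Gene spans came from GENCODE release 29, which may not be the release behind the counts, matched by identifier for 51 of 51 members. Promoter windows came from RefSeq (GRCh38.p14).

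By rule, members with at least 300 UMIs, up to 8 called members per class with the largest differences, every member past 2-fold between libraries and up to 4 called genes per list were named. CACNB3, CACNA1E and TRPM5 in the classes with over 8 calls, and members under 300 UMIs named otherwise, were added after their values were seen. The members, lists and tests were chosen with earlier results of these data known. The alternatives were other scalings, pseudocounts, class rules and cell filters, classes from Leiden clusters made without the members, thinning to 10000 UMIs, no filter on low genes and leaving out each library. Scaling to long genes was added after seeing the data. Python 3.11.15, numpy 2.4.6, scipy 1.17.1, pandas 2.3.3, scanpy 1.11.5 and matplotlib 3.10.9 were used with random seed 0.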

Additional observations from a re-analysis of the deposited data

Results flagged for a closer look

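TRPC7-AS1, annotated on the strand opposite to TRPC7 and left out by the rule on antisense genes, held 3205 UMIs over all kept cells and was the only one of the 10 antisense genes with at least 300 UMIs. It is given here because it is a signal outside the genes compared above. It stood at 13.2 CPM (CD49a-positive), 10.0 CPM (CD49a-negative) and 10.3 CPM (unsorted) in TPH1-rich cells. In INS-rich cells of the same libraries it stood at 8.71, 8.48 and 8.78 CPM, in GCG-rich cells at 9.19, 11.05 and 11.8 CPM and in SST-rich cells at 12.9, 15.0 and 13.6 CPM. Its highest and lowest values thus differed less than 2-fold, whereas TRPC7 ranged between 1.60 and 173 CPM over the same sums. The difference between the pair was not tested.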

How the results depend on the processing

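The counts of called members were recomputed under 14 settings and the counts past 2-fold under 9, and no named value changed sign. With cells thinned to 10000 UMIs, 5 members were called in GCG-rich cells in place of 10, a setting with fewer UMIs and fewer cells. With 50 CPM added in place of 10, 0 members passed 2-fold between CD49a-positive and CD49a-negative cells in place of 3, at log2 ratios of 0.81 (CACNA1E), 0.96 (CACNA2D3) and -0.49 (TRPC7); a larger added value shrinks every ratio by construction. Leaving out 1 library at a time gave 4 to 5 called members in INS-rich, 9 to 11 in GCG-rich, 3 to 4 in SST-rich and 6 to 9 in TPH1-rich cells. The calls of TRPC7 and TRPC4, and those of CACNA1E in INS-rich and GCG-rich, CACNA2D3 in INS-rich and TRPM3 in SST-rich and GCG-rich cells, held under all settings run. Among named members, calls in other settings were lost for CACNG8, CACNG5, CACNG6, CACNG2, TRPA1, CACNA1G, TRPM5 and CACNB3 in 1 class or more, and for CACNA2D3 in SST-rich cells under the looser class rule (log2 difference -0.90). Over the named members and settings, 338 kept their direction and side of the threshold, 40 calls were lost and 37 values moved beyond their interval. The moved values all fell under settings that recomputed the library ratios. With 50 CPM added, and with the mean of per-cell CPM, 6 values moved and 1 did not. Thinning, scaling to long genes and leaving out nucleus-poor cells also moved 6 each, 1 CPM added moved 5 and median-of-ratios factors 2. The intervals of the library folds thus do not cover the choice of processing. The class fit used library as a block. No paired analysis was possible between the sorted groups because each has 1 library. Depth limits the 22 members under 300 UMIs, for which differences were not detectable at this depth unless given above.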

Other observations

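The 1990 cells in which none of INS, GCG, SST and TPH1 was high were left out of the classes, yet in the CD49a-positive library they had higher levels of several channel genes than INS-rich cells did. CACNA1E stood there at 169.8 CPM in CD49a-positive, 61.2 CPM in CD49a-negative and 90.0 CPM in unsorted cells, CACNA2D3 at 172, 47.3 and 95.9 CPM, and TRPM3 at 191, 105 and 153 CPM. TRPC7 stood at 23.5, 44.7 and 69.3 CPM and CACNA2D1 at 1995, 882 and 1229 CPM in these cells. Their summed INS level was 22051, 13228 and 15577 CPM, and 24.9%, 17.5% and 21.3% of their UMIs lay in other genes of at least 200 kb, the highest share of any class in the CD49a-positive library. In the 444 mixed cells CACNA1E stood at 86.3, 41.7 and 60.01 CPM and TRPC7 at 15.4, 23.0 and 21.5 CPM.

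INS-rich cells were also set side by side by their CACNA2D3 UMIs after thinning to 10000 UMIs. Cells with at least 5 of them numbered 138 in the CD49a-positive, 22 in the CD49a-negative and 61 in the unsorted library, and cells with 0 numbered 730, 226 and 405. In the cells with at least 5, 20.1%, 19.7% and 19.7% of UMIs lay in other long genes, against 15.6%, 14.8% and 15.5% in the cells with 0. Mean CACNA1E was 1.96, 2.64 and 2.33 UMIs per cell in the cells with at least 5 CACNA2D3 UMIs, against 1.33, 1.27 and 1.18 UMIs in the cells with 0. Other genes differed too. Mean CACNA2D1 was 20.9, 18.0 and 18.4 against 15.0, 11.8 and 13.9 UMIs. Mean CACNA1D was 3.62, 3.41 and 3.51 against 2.77, 2.54 and 2.52 UMIs. Mean TRPM3 was 1.35, 0.41 and 1.15 against 1.08, 0.64 and 0.86 UMIs. Median MALAT1 was 14936, 15110 and 13514 against 11710, 11676 and 11914 CPM. Median INS was 86311, 82186 and 92202 CPM in the cells with at least 5, against 87255, 89071 and 92269.5 CPM in the cells with 0. These are descriptions of cells grouped by the gene itself, with no test.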
